A study of Mus musculus with 6 samples.

Results

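Transcripts of 5 basic leucine zipper (bZIP) transcription factors, Fos, Jun, Junb, Atf3 and Batf3, were followed in cultured CD8 T cells with and without the T-lineage protein Themis. The 5 genes were taken by symbol from a deposited table of 854 genes, and all 5 had enough reads to be tested, as had 794 of the 854. The cells were OT-I cells, T cells that carry a transgenic T-cell receptor (TCR) for an ovalbumin peptide, enriched as naive cells from mouse spleen and lymph nodes. One group was wild-type for Themis (WT) and the other carried a conditional knockout of Themis (cKO). Both groups carried the OT-I receptor and both were kept in IL-2 at 1 µg/ml for 3 days, with 3 libraries each. The Cre driver of the knockout and the age of the mice are not given in the sources used here, nor is it stated whether the 3 libraries came from separate animals, so the p-values cover library-to-library spread alone, and that spread may be technical.

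The bZIP factors bind DNA as dimers, through a basic region that contacts the bases and a leucine zipper that pairs the partners. FOS proteins pair with JUN proteins to form AP-1, which in T cells is assembled after TCR and costimulatory signals pass through the MAP kinases and which binds beside NFAT and other factors at cytokine genes. Fos, Jun and Junb are immediate early genes, transcribed within minutes of a stimulus without new protein synthesis. ATF3 is a stress-induced member that can pair with JUN proteins and often represses, and BATF3 lacks a transactivation domain, pairs with JUN proteins and binds with IRF factors at composite sites. Batf3 is best known as the factor on which the development of cross-presenting dendritic cells depends, and it is also used by CD8 T cells.

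The deposited table is a part of the transcriptome, and its 6 read-count columns held 424599 to 437428 reads in cKO and 946768 to 1054432 in WT. These sums are not sequencing depths. Between -0.94 and 1.06 the table holds no gene (log2 of cKO over WT mean counts), and a gene's presence in it therefore already implies a difference of about that size on these same libraries. Passing a test within it is therefore no independent evidence of a difference. Counts were scaled within each genotype and the genotypes were taken at equal depth. The empty interval is centred at 0.0598 on the unscaled counts. How the genes were chosen is not stated, so the deposited counts alone do not settle that assumption. Scalings that centre the table on itself move log2 fold changes upward, by a median of 1.29 to 1.31, and the empty interval with them. Themis itself stood at 4960 to 5780 scaled counts in the WT libraries and at 977 to 1230 in the cKO libraries, over the whole gene. None of 8 general T cell and CD8 genes looked for, such as Cd3e and Cd8a, was in the table, so the labelled cell type was not checked here.

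The stretch before each gene's start is shown because genes of this family are known to be bound by their own products. At equal depth the members were all lower in cKO, though by unequal amounts, and a part of these stretches in that was not tested. Each line gives the 150 bases before the annotated RefSeq start on GRCm38.p6, read 5′ to 3′ on the gene's strand. Capitals mark matches to the AP-1 site TGANTCA, the cyclic AMP response element (CRE) form TGACNTCA, its half-site TGACGT or the ATF-CEBP composite TGATGNAA, on either strand.
Fos, chr12:85473740-85473889, plus strand: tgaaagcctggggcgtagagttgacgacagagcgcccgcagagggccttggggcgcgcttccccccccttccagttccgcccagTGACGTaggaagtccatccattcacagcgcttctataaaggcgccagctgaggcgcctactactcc
Jun, chr4:95052223-95052372, minus strand: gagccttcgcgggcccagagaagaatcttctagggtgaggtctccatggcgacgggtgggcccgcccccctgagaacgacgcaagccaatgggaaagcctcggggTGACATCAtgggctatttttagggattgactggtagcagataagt
Junb, chr8:84978749-84978898, minus strand: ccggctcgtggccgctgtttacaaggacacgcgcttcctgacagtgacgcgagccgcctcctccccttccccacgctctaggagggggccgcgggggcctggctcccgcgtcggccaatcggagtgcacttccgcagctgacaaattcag
Atf3, chr1:191183334-191183483, minus strand: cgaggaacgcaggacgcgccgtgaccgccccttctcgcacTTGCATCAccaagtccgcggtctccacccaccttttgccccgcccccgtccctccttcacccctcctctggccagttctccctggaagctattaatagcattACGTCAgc
Batf3, chr1:191098264-191098413, plus strand: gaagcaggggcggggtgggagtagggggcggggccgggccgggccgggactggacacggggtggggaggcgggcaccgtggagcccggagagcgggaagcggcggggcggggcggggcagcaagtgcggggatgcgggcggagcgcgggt

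Matches were searched in the RefSeq windows from 250 bases before to 50 bases after each start, of which there are 32851 over the genome. The half-site TGACGT, which the full CRE also contains, was found in 2 of the 5 members and in 7.51% of all windows. In Fos it began 66 bases before the start, and in Atf3 its reverse complement began 8 bases before it. The form TGACNTCA was found in Jun alone of the 5, as TGACATCA 45 bases before the start, and in 8.83% of all windows. The ATF-CEBP composite TGATGNAA was found in Atf3, on the opposite strand 110 bases before the start, and in 3.97% of all windows. The AP-1 site TGANTCA (7.81% of all windows), the interferon-stimulated response element (3.44%) and the CArG box bound by SRF (1.63%) matched in none of the 5 windows. Sites more than 250 bases before a start were not searched, so a gene may still hold them there. The TATA letters TATAAA, present in 13.6% of windows, began 33 bases before the start of Fos and at the annotated start of Junb. Neither Junb nor Batf3 matched a bZIP motif, and the Batf3 stretch is richest in G and C of those shown, at 81.3% against 58.0% to 68.0%.

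All 5 members were lower in cKO than in WT with the genotypes at equal depth (edgeR quasi-likelihood test with Benjamini-Hochberg adjustment over the 794 tested genes), but Junb turned to higher under the table-centred scalings. Of all tested genes 75.8% were called lower and 24.2% higher, so the members' count says little beyond the make-up of the table. Adjusted over the 16996 genes that the deposited p- and q-values imply, all 5 were still called, as were 70.3% of tested genes in that direction. With TMM over the table, 2 of the 5 (Atf3 and Batf3) were called lower, against 27.0% of tested genes, and 1 (Junb) higher, against 28.7%. The groups did not overlap for any of the 5, as for 75.7% of tested genes that were lower without overlap. The median log2 fold change of the members was -1.67, against -1.64 over the 602 genes that were lower and -1.34 over all tested genes. The members ranged from a 2.01-fold difference for Junb to a 58.5-fold difference for Atf3.

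**Figure D1:**
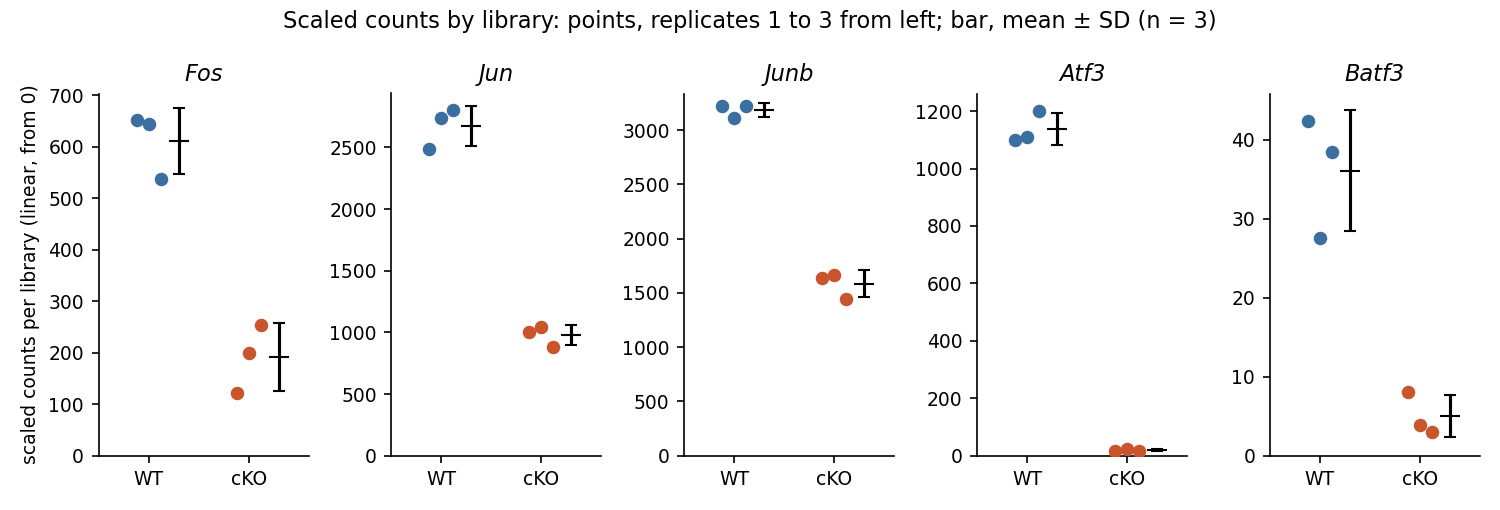
Scaled counts (linear axis from 0, one scale per gene) of each member in the 3 WT and 3 cKO libraries, with the mean ± SD beside the points. In every panel the cKO points lie below the WT points at equal depth, from 1440 to 1670 against 3110 to 3220 for Junb (which turned to higher under the table-centred scalings) to 16.1 to 24.6 against 1100 to 1200 for Atf3.

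Among the FOS proteins, Fos was the member in the table. Fos (Gene ID 14281, chromosome 12, positions 85473890 to 85477274, plus strand, 4 exons) encodes the founding partner of JUN in AP-1. Its scaled counts were 653, 644 and 538 in WT replicates 1 to 3 and 122, 200 and 253 in cKO replicates 1 to 3. Every cKO library was lower than every WT library, and the lowest WT value was 2.12 times the highest cKO value. The means were 611 ± 64.0 and 192 ± 66.1 (SD, n = 3 each), and the log2 fold change was -1.67 ± 0.23 (standard error, edgeR quasi-likelihood test, adjusted p = 7.83e-05). The cKO libraries were uneven for this gene, with a coefficient of variation of 34.5% against 10.5% in WT. Without cKO replicate 1, the lowest, the log2 fold change was -1.43. Under the 3 table-centred scalings it was -0.37 to -0.38 and the call ended (adjusted p of 0.192 to 0.230, edgeR and DESeq2, against at most 0.00168 under the other alternatives).

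The JUN proteins can pair with each other as well as with FOS, ATF and BATF proteins. Jun (Gene ID 16476, chromosome 4, positions 95049036 to 95052222, minus strand, 1 exon) had 2490, 2730 and 2800 scaled counts in the WT libraries and 1000, 1040 and 883 in the cKO libraries. The cKO libraries kept 36.5% of the WT mean, and the spread within a genotype was small, with coefficients of variation of 6.15% and 8.42%. The log2 fold change was -1.45 ± 0.10 (standard error, edgeR quasi-likelihood test, adjusted p = 5.20e-07). It came to -0.16 under the table-centred scalings, where the call ended (adjusted p of 0.191 to 0.205, edgeR and DESeq2, against at most 5.56e-05 under the other alternatives). GENCODE places the antisense gene Junos over Jun, and since the sources used here do not say that counting used strand, reads of the pair cannot be told apart.

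Junb encodes a JUN protein that is abundant in activated T cells and is a weaker activator than JUN. The gene (Gene ID 16477, chromosome 8, positions 84976909 to 84978748, minus strand, 1 exon) had 3220, 3110 and 3220 scaled counts in the WT libraries and 1640, 1670 and 1440 in the cKO libraries. The groups did not overlap, with a gap of 1.86-fold between the lowest WT and the highest cKO library, and the cKO mean was 49.7% of the WT mean. The log2 fold change was -1.01 ± 0.088 (standard error, edgeR quasi-likelihood test, adjusted p = 2.95e-06), close to the edge of the table's empty interval. Under the table-centred scalings the sign turned, to 0.28 to 0.29, with adjusted p of 0.00349 to 0.0207 (edgeR and DESeq2, against at most 0.000150 for the negative value under the other alternatives). From the deposited counts alone, whether Junb RNA was lower or higher relative to all RNA thus rests on the assumption of equal depth. The authors' own log2 value for Junb is negative, at -0.76 (q = 0.136 in the authors' test). For Themis the authors' value is -2.25, as in the equal-depth fit, against -0.95 to -0.96 under the table-centred scalings. For the members the authors' values are smaller in size than that fit, by 0.18 to 0.86. How the authors scaled the libraries was not tested.

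Atf3, an ATF factor induced by stress and by innate and TCR signals, showed the widest separation of the 5. The gene (Gene ID 11910, chromosome 1, positions 191170296 to 191183333, minus strand, 4 exons) had 1100, 1110 and 1200 scaled counts in the WT libraries and 16.1, 24.6 and 17.2 in the cKO libraries. The lowest WT library was 44.8 times the highest cKO library, and the cKO mean was 1.70% of the WT mean. The raw counts behind these values were 3419 against 58 over the 3 libraries of each genotype, 58.9 times as many in WT (exact 95% Clopper-Pearson interval 45.5 to 77.8, which covers counting error only). The log2 fold change was -5.87 ± 0.18 (standard error, edgeR quasi-likelihood test, adjusted p = 7.53e-09), and it remained called at -4.58 to -4.59 under the table-centred scalings. By fold change Atf3 stood 11th from the lowest of the 794 tested genes. Among the 453 tested genes with a mean of at least 100 scaled counts it was second, after Rsad2, an interferon-induced antiviral enzyme.

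Batf3 was the least abundant member. The gene (Gene ID 381319, chromosome 1, positions 191098414 to 191108943, plus strand, 3 exons) lies 61.4 kb from Atf3, with 4 annotated genes between them. Its raw counts were 40, 28 and 40 in the WT libraries and 8, 4 and 3 in the cKO libraries, which came to 42.4, 27.5 and 38.4 against 8.06, 3.94 and 3.03 scaled counts. The groups did not overlap, and the ratio of the summed counts, 108 against 15, was 7.20 with a counting interval of 4.18 to 13.3. The log2 fold change was -2.82 ± 0.40 (standard error, edgeR quasi-likelihood test, adjusted p = 8.06e-05), and it remained called at -1.54 to -1.56 under the table-centred scalings. In a bulk sample, fewer cells that express a gene and less RNA per cell cannot be told apart, and this holds for each of the 5.

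**Figure D2:**
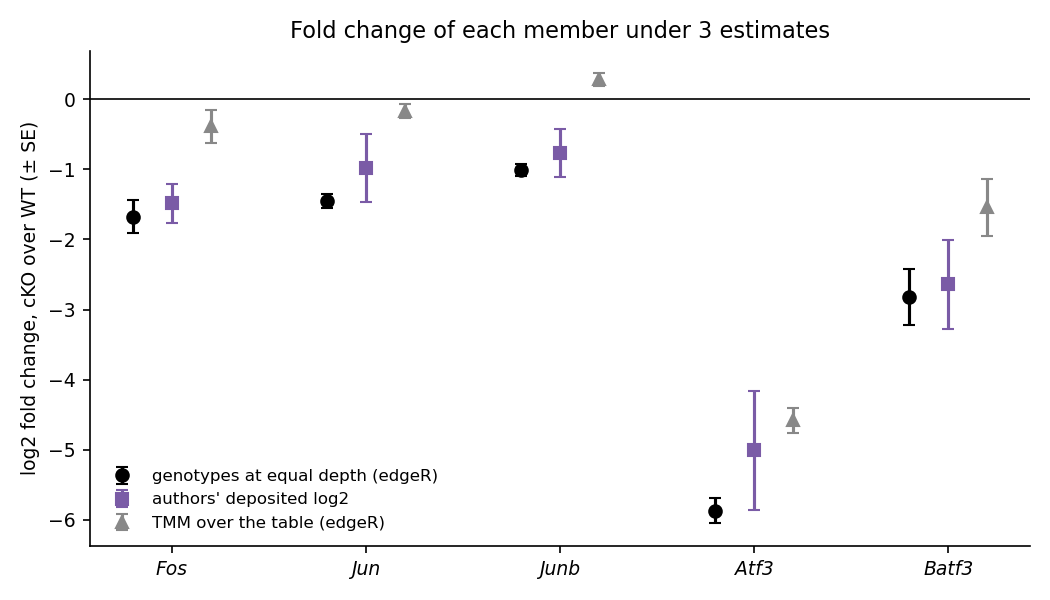
Log2 fold change of cKO over WT (± standard error) of each member from edgeR with genotypes at equal depth, from the authors' deposited table (standard error derived from the deposited p-value as in a Wald test) and from edgeR with TMM over the table. Atf3 and Batf3 lie below 0 in all 3 estimates, at -4.58 and -1.54 with TMM, while Jun is at -0.16 and Junb at 0.28 with TMM.

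The authors' deposited table gives all 5 members a negative log2 value, smaller in size than the fit by 0.18 to 0.86. In the authors' deposited table Atf3 stands at -5.01 (q = 4.28e-07), Batf3 at -2.64 (q = 0.000972) and Fos at -1.48 (q = 6.77e-06). Jun and Junb, at -0.98 and -0.76, have q-values of 0.185 and 0.136 in the authors' deposited table and did not pass 0.05 there. So 3 of the 5 passed the authors' own test, against 67.6% of the table's genes in either direction and 55.0% that passed and were lower. The standard errors implied by the authors' deposited table are 0.48 for Jun and 0.35 for Junb, against 0.10 and 0.088 in the edgeR fit of the deposited counts. Whether the authors' test used exactly these counts was not checked here.

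The ratio of 2 members within a library does not depend on how libraries are scaled, so it shows directly whether the members changed unequally. For the 10 pairs the log2 ratio of counts was compared between genotypes by a two-sided exact permutation test, which with 3 libraries against 3 cannot go below p = 0.1 (0.143 after Benjamini-Hochberg adjustment over the 10 pairs). The genotypes did not overlap in 7 pairs, and each of these 7 reached that smallest p. This test therefore cannot pass 0.05 for any pair, and the values are given with their spread.

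Atf3 was lower relative to each of the other 4 members. Its log2 ratio to Jun was -1.18, -1.30 and -1.22 in the WT libraries and -5.96, -5.40 and -5.69 in the cKO libraries, a difference of -4.45 or 21.9-fold (exact permutation test, p = 0.1). Relative to Junb the difference was -4.90, relative to Fos -4.18 and relative to Batf3 -2.95. Atf3 counts exceeded Fos counts in each WT library and were below them in each cKO library, the log2 ratio going from 0.90 ± 0.23 to -3.28 ± 0.53 (SD, n = 3 each).

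Batf3 was lower relative to both JUN genes, by 1.50 on the log2 scale against Jun and 1.95 against Junb, without overlap. Its ratio to Fos overlapped between genotypes, with a difference of -1.22 (exact permutation test, p = 0.3) that became -1.93 without cKO replicate 1 and -0.69 without cKO replicate 3. Jun was lower relative to Junb, with log2 ratios of -0.37, -0.19 and -0.20 in the WT libraries and -0.71, -0.68 and -0.71 in the cKO libraries. That difference is small, 1.36-fold, and larger than the spread in either genotype (SD of 0.10 and 0.015). Fos to Jun was the pair that differed least, at -2.13 ± 0.23 in WT and -2.41 ± 0.62 in cKO (SD, n = 3 each, exact permutation test, p = 0.7), and its cKO libraries spanned the whole WT range. Without cKO replicate 1 its difference turned from -0.28 to 0.042, and without cKO replicate 3 it was -0.58. Fos to Junb overlapped as well, with a difference of -0.72 (exact permutation test, p = 0.2) that became -0.40 without cKO replicate 1.

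**Figure D3:**
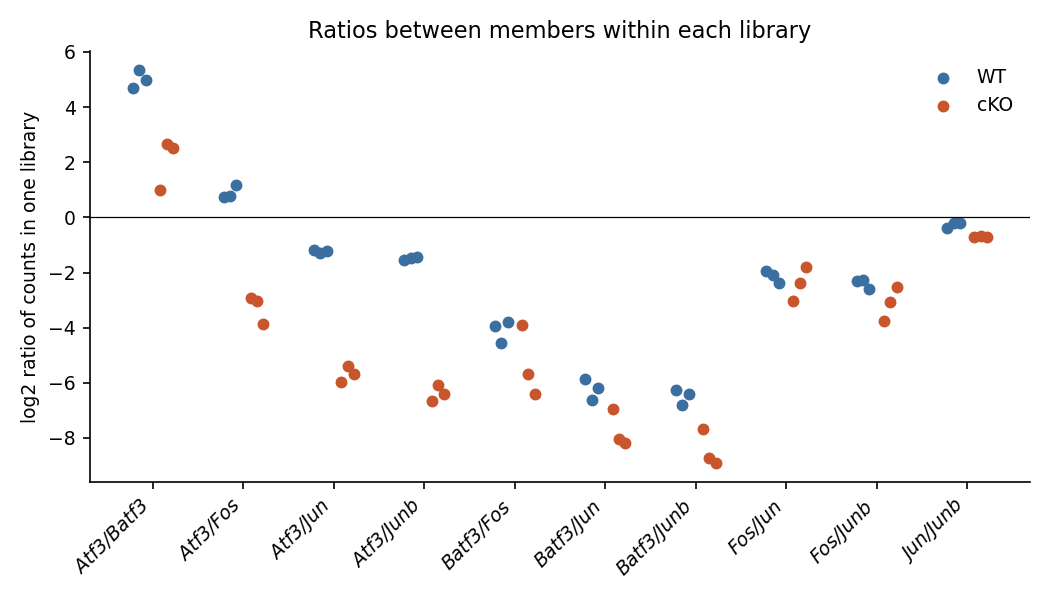
Log2 ratio of the raw counts of 2 members in the same library for the 10 pairs, 3 WT and 3 cKO libraries each, side by side. The 4 pairs with Atf3 are the most separated, by 2.95 to 4.90 between the genotype means, and the 3 pairs Batf3/Fos, Fos/Jun and Fos/Junb overlap.

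Levels were set against each other per kb of transcript, using the length of the GENCODE transcript matched to each RefSeq entry. In WT, Junb was highest at 1761 ± 35.0 scaled counts per kb (mean ± SD, n = 3). Jun followed at 839 ± 51.6, Atf3 at 573 ± 28.3, Fos at 290.0 ± 30.4 and Batf3 at 45.1 ± 9.59, and no neighbours in this order overlapped between libraries. In cKO the order was Junb at 876 ± 68.5, Jun at 306 ± 25.8, Fos at 90.9 ± 31.4, Atf3 at 9.72 ± 2.33 and Batf3 at 6.25 ± 3.35. Atf3 thus stood between Jun and Fos in WT and below Fos in cKO, where its libraries (8.12 to 12.4 per kb) overlapped those of Batf3 (3.78 to 10.1). The order within a genotype uses the libraries' own counts and does not rest on the depth of the other genotype.

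**Figure D4:**
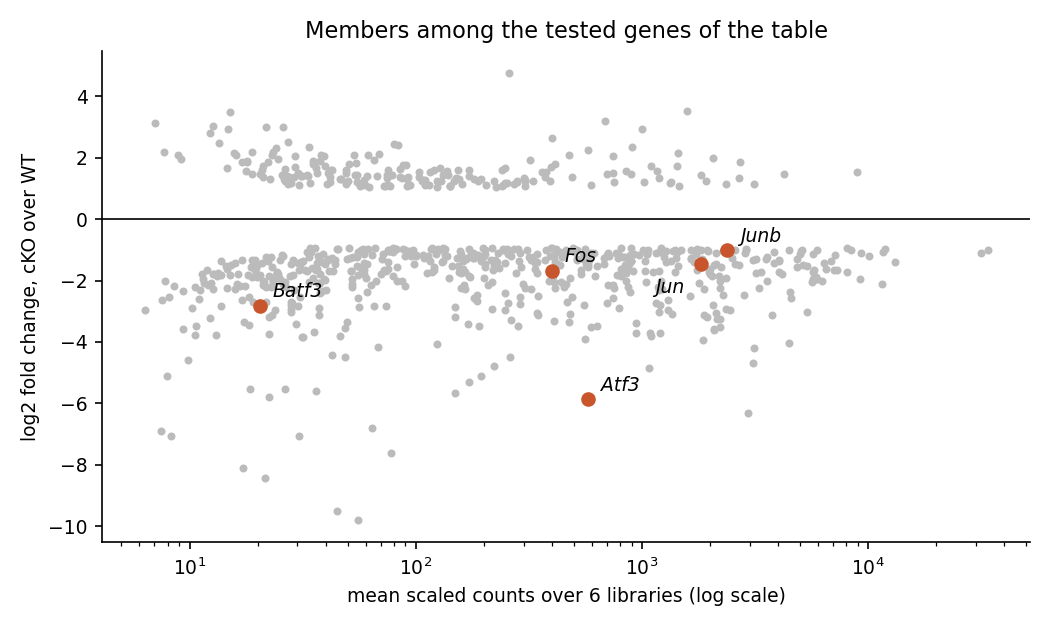
Log2 fold change of cKO over WT at equal depth against mean scaled counts over the 6 libraries (log axis) for the 794 tested genes, with the members marked. The empty band around 0 is the table's fold interval, Junb (-1.01) lies at its edge, and Atf3 (-5.87) is second lowest, after Rsad2, among genes with a mean of at least 100 scaled counts.

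Relatives of the members in the bZIP family were taken from a list of 39 other factors, of which 8 were in the table. All 8 were lower at equal depth, as were 75.8% of tested genes, with a median log2 fold change of -1.47. Under the table-centred scalings Cebpg and Atf5 turned sign and the calls of Jdp2, Crem, Maff and Ddit3 ended. Nfil3, a repressor needed for several lymphoid lineages, fell from 1150 ± 78.0 to 261 ± 28.3 scaled counts (n = 3 each). Ddit3, the stress factor CHOP, fell from 815 ± 62.1 to 260.0 ± 59.3, Crem, a cyclic AMP responsive factor, from 830.0 ± 93.8 to 333 ± 30.6 and Cebpg from 1060 ± 58.1 to 548 ± 16.2. Batf2, Jdp2 and Maff, named here after their values were seen as close relatives of the members, had log2 fold changes of -2.31, -1.62 and -1.31. Batf2 remained called under the table-centred scalings, at -1.03 to -1.04. Fosb, Fosl1, Fosl2, Jund and Batf were not in the table and were not analysed here.

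Of 10 factors that bind beside AP-1 or BATF dimers, only Irf4 was in the table. IRF4 pairs with BATF and JUN proteins at composite elements and scales with TCR signal strength. Its scaled counts were 6770, 7990 and 7940 in the WT libraries and 1300, 1570 and 1530 in the cKO libraries. The log2 fold change was -2.36 ± 0.10 (standard error, edgeR quasi-likelihood test, adjusted p = 2.63e-08), and the groups did not overlap. The NFAT genes Nfatc1, Nfatc2 and Nfatc3 were not in the table and were not analysed here.

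The table holds 3 of 30 listed genes of the MAP kinase pathway and its inhibitors. These 3 are inhibitors and were lower, as were 75.8% of tested genes. Dusp8, which dephosphorylates JNK and p38, was read 182 times in the WT libraries together and 1 time in the cKO libraries, a ratio of 182 with a counting interval of 32.3 to 7230. Spry1, an inhibitor of RAS and ERK signalling, fell from 133 ± 34.5 to 32.6 ± 6.87 scaled counts. Dusp16, a JNK phosphatase, fell from 737 ± 18.2 to 295 ± 28.0 at equal depth, and with the table-centred scalings it was no longer called. None of the kinases on the list was in the table.

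The table holds 11 of 20 other immediate early genes, with a median log2 fold change of -2.05. Each was lower at equal depth, as were 75.8% of tested genes. Under the table-centred scalings Myc and Csrnp1 turned sign and the calls of Egr1, Ier3 and Zfp36l1 ended. Nr4a2 and Nr4a3, orphan nuclear receptors induced by the TCR, fell from 517 ± 37.4 to 46.3 ± 1.64 and from 613 ± 47.7 to 74.1 ± 13.4 scaled counts. Zfp36l1, an RNA-binding protein that destabilises transcripts, had a log2 fold change of -1.38, and Myc one of -1.07. Jun (-1.45) and Fos (-1.67) lie within the range of this group, Atf3 (-5.87) lies below its lowest member, and Junb (-1.01) lies above its highest, Myc.

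The table holds 8 of 25 genes known as AP-1 and NFAT targets in T cells, the median in log2 being -2.29. Each was lower at equal depth, as were 75.8% of tested genes. The calls of Tnfrsf9, Ctla4 and Pdcd1 ended under the table-centred scalings, and no member turned sign. Lag3, an inhibitory receptor, fell from 234 ± 49.1 to 14.0 ± 1.82 scaled counts. Ifng fell from 2100 ± 47.4 to 304 ± 48.2 and Cd69 from 9370 ± 484 to 2440 ± 77.2. Tnfrsf9, the costimulatory receptor 4-1BB, had 5590 ± 604 and 2080 ± 65.5 scaled counts.

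The integrated stress response raises ATF4, and Atf3 and Ddit3 are among its known targets. Of 20 genes on this list, 16 were in the table, among them Ddit3, Cebpg and Atf5, which the bZIP list holds too. All 16 were lower at equal depth, as were 75.8% of tested genes, with a median log2 fold change of -1.85. Under the table-centred scalings Slc3a2, Gadd45a, Cebpg and Atf5 turned sign and the calls of Ddit3 and Trib3 ended. The call of Slc7a11 ended there with DESeq2 (adjusted p = 0.0987) but not with edgeR (0.0428 and 0.0429). Chac1, a glutathione-degrading enzyme, fell by 2.86 on the log2 scale, Ddit4, an inhibitor of mTORC1, by 2.01, Sesn2 by 1.69 and Ppp1r15a, which reverses the response, by 1.69. Atf4 itself was not in the table and was not analysed here.

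**Figure D5:**
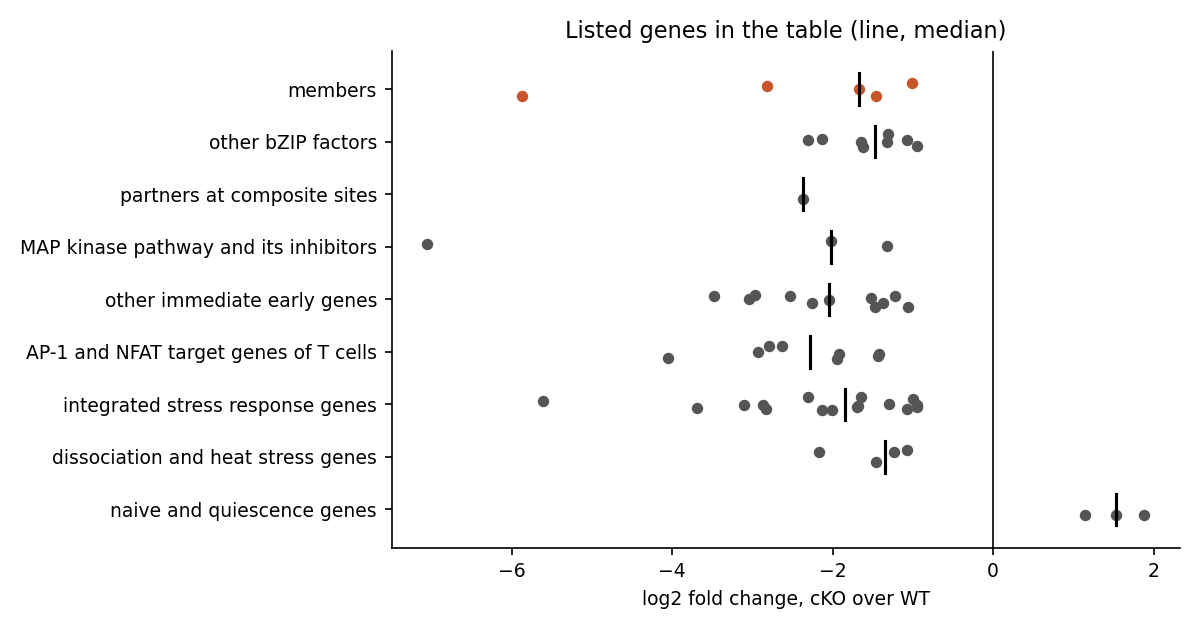
Log2 fold change of cKO over WT at equal depth of the members and of the listed genes that were in the table, 1 point per gene (spread vertically at random for legibility), with the median as a line. The medians of the lists plotted on the lower side run from -1.35 to -2.36 (some of their genes turned sign under the table-centred scalings), and the 3 naive and quiescence genes lie at 1.15 to 1.88.

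Fos, Jun, Junb and Atf3 are also genes that rise when tissue is dissociated or cells are stressed, so heat-shock and other handling genes were examined. The table holds 4 of 16 such genes, namely Hspa1a (-2.17), Hspa1b (-1.47), Gadd45b (-1.24) and Nfkbia (-1.07). Each was lower at equal depth, as were 75.8% of tested genes. Under the table-centred scalings the last 2 turned sign and the calls of the first 2 ended. Their summed scaled counts were 2370 to 2550 in WT and 1080 to 1220 in cKO. Hspa1a and Hspa1b are near-identical copies whose reads can be split by the counting. Genes of naive and quiescent T cells moved the other way. The 3 of 10 that the table holds were higher, as were 24.2% of tested genes: Tcf7 (1.53), S1pr1 (1.88) and Klf2 (1.15). The authors' log2 values for these 3 are smaller, at 0.677, 0.867 and 0.495. None passed the authors' own test (q of 0.456, 0.42 and 0.553), which 67.6% of the table's genes passed in either direction. The part of handling stress in the values of Fos, Jun, Junb and Atf3 was not tested.

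Markers of other cells were examined because Batf3 is also a factor of conventional type 1 dendritic cells. Of 10 markers of these cells, 3 were in the table, and they went both ways: Tlr3 was lower (48.6 ± 10.9 against 7.35 ± 2.59 scaled counts), while Itgae, which CD8 T cells also express, and Wdfy4 were higher (133 ± 19.6 against 1230 ± 165, and 15.6 ± 6.16 against 54.7 ± 28.5). The call of Wdfy4 ended when the adjustment covered all 16996 genes that the deposited values imply (adjusted p = 0.0613, edgeR, with 3.56e-09 to 0.0613 over all its alternatives in edgeR and DESeq2). The defining Xcr1 and Clec9a were not in the table and were not analysed here. The summed scaled counts of other lists were 639 to 800 in WT and 325 to 356 in cKO for 4 of 12 myeloid markers, of which Mpeg1 and H2-Ab1 were lower and Itgax and H2-Eb1 higher, with the call of H2-Ab1 ending under the table-centred scalings. They were 63.9 to 109 and 134 to 367 for 4 of 8 B cell markers, and 423 to 703 and 1150 to 2050 for 5 of 8 NK cell markers. For gamma-delta T cells they were 196 to 237 and 501 to 1490 (2 of 5 markers), and for CD4 and regulatory T cells 304 to 322 and 87.6 to 205 (1 of 5, Ikzf2, which turned sign under the table-centred scalings). No marker in the table was at 0 in all libraries of a genotype. The part of other cells in the values of the 5 members was not tested.

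The genes most like each member over the 6 libraries were found by the root mean square difference of log2 scaled counts, each gene centred on its own mean, among 426 other genes with a mean of at least 100 scaled counts, leaving out predicted genes, pseudogenes and Rik clones. Most like Jun were Relb, an NF-kB subunit (0.0704), Gys1, a glycogen synthase (0.0711), and Tmem184b (0.0734). Most like Junb were Lgals3bp (0.0429), Trim12a (0.0533) and Nab2, a corepressor of EGR factors (0.0546), and like Junb these were lower at equal depth and turned sign under the table-centred scalings. Most like Batf3 were Ccl4, a chemokine (0.221), Gpt2, an alanine transaminase (0.247), and Chac1 (0.272).

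Most like Fos were Lipg (0.238), Zfp608 (0.240) and Ero1l (0.244). Atf3 was the least matched, with Itga7, an integrin chain, at 0.294, Rsad2 at 0.340 and Ifi207, an interferon-induced PYHIN gene, at 0.428. Trim12a and Ifi207 have near-identical paralogs, which makes their counts uncertain. Among the members themselves, Jun and Junb were the most alike pair (0.231) and Junb and Atf3 the least (2.42).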

How the data were processed

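RNA of 3 WT and 3 Themis cKO libraries was sequenced on a DNBSEQ-G400, per the labels' protocols. Tools named, without role or order, per the submitters' processing notes are RSEM 1.2.12, Bowtie2 2.2.5, HISAT2 2.0.4 and DESeq2 1.4.5, with the genome GRCm38.p6. The authors deposited estimated counts per gene (66.1% of the values are whole), with their log2 fold change and, per the file headers, a p-value and q-value. No source used here states how the 854 genes were chosen.

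Counts were rounded, scaled by median-of-ratios factors within each genotype (0.944 to 1.04) and tested with edgeR 4.0.16 in R 4.3.3 (quasi-likelihood, smallest count 10, Benjamini-Hochberg, threshold 0.05). A standard error is the size of the log2 fold change over the root of its F statistic. Scaled counts are on this scale. The authors' ratio of p-value to q-value is a whole rank (within 0.02) in 71.0% of 427 genes when 16996 tested genes are assumed, and in 36.3% under the next best assumption. The exact tests, ratios (pseudocount 1 as an alternative), sequences and plots used Python 3.11.15, scipy 1.17.1 and matplotlib 3.10.9. Alternatives included DESeq2 1.42.0. The fit was first tested on simulated counts. Replicate pairs differed by more than sampling noise (chi-square per degree of freedom 6.34 to 19.7).

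The members and gene lists were chosen with earlier results of these data known. Named genes are the 5 members, Themis, up to 4 genes per list with the smallest p, and the 3 genes most like each member. Further genes named as exceptions to a count were chosen after their values were seen. All 5 members matched RefSeq sequences and coordinates on GRCm38.p6.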

Additional observations from a re-analysis of the deposited data

How the results depend on the processing

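For the 5 members, the calls changed under the 3 table-centred scalings and under none of the other alternatives run. With TMM over the table, DESeq2 size factors in edgeR, and DESeq2 itself, in that order, 213, 211 and 207 genes were called lower in cKO, against 602 at equal depth, and 226, 224 and 224 higher, against 192, since each assumes that most genes of a table selected by fold change do not change. In the same order the log2 fold change was -0.38, -0.37 and -0.38 for Fos and -0.16, -0.16 and -0.16 for Jun, no longer called, and 0.28, 0.29 and 0.29 for Junb. The sign also turned for Cebpg (0.34, 0.34, 0.34), Atf5 (0.22, 0.23, 0.22), Myc (0.23, 0.23, 0.23), Gadd45b (0.0526, 0.0593, 0.0556), Nfkbia (0.22, 0.23, 0.22), Ikzf2 (0.20, 0.21, 0.20), Lgals3bp (0.32, 0.33, 0.32), Trim12a (0.28, 0.28, 0.28), Csrnp1 (0.0717, 0.0761, 0.0720), Slc3a2 (0.34, 0.35, 0.34), Gadd45a (0.29, 0.30, 0.29) and Nab2 (0.30, 0.31, 0.30). Without scaling, with the empty interval centred on 0, without the low-count filter, in DESeq2 at equal depth, and adjusted over 16996 genes, all 5 members remained called and lower. Leaving out each library in turn gave -1.92 to -1.43 for Fos, -1.55 to -1.38 for Jun, -1.06 to -0.94 for Junb, -6.10 to -5.75 for Atf3 and -3.32 to -2.56 for Batf3, with 601 to 616 genes lower and 191 to 197 higher. The Fos to Jun difference ranged from -0.58 to 0.042, turning without cKO replicate 1. With the replicate block the members stood at -1.72, -1.46, -1.01, -5.88 and -2.84 (Fos, Jun, Junb, Atf3, Batf3), all called, with 602 genes lower and 191 higher. Same-numbered libraries did not deviate together (r of -0.06, -0.06 and -0.16). With 3 libraries per genotype these correlations cannot exclude that the numbers pair the samples. A pseudocount of 1 turned no ratio. For Batf3, 15 reads in cKO limit the precision.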
